A study of Sus scrofa with 20 samples.

Results

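The genes described are the mucin genes MUC1, MUC4, MUC5AC, MUC5B, MUC13 and MUC20, looked up by name among the 25764 genes of the pig table, of which 17982 carry a name. Of these 6 names 5 have a row, 1 each, and MUC4 was not analysed here. The rows were found by name, and all 5 passed the filter on low values described with the first test.

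The 20 libraries hold poly(A) RNA of pig cells in 6 groups. The 5 libraries of porcine biliary tree stem cells (pBTSCs), labelled as gallbladder, came from newborn piglets. By the study's own listing S2, S7 and S11 are from piglets of an H2B-GFP line, in which a histone H2B fused to green fluorescent protein is knocked into the ACTB locus and is made in all tissues, and S15 and S20 are from wild-type piglets. The 15 liver libraries are 4 labelled CD45-/EpCAM+ (S4, S9, S13 and S19), 2 labelled CD45-/EpCAM- (S5 and S14), 5 labelled CD45+ (S3, S8, S12, S18 and S23), 2 labelled CD31+ (S16 and S21) and 2 labelled CD146+ (S17 and S22). The line, age and donor of each liver library are not given in the sources used here. Libraries are named by the storage numbers of their titles, and whether samples of 1 liver group came from separate animals is not given, so p-values measure the spread between these samples only.

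Mucins are large proteins whose serine- and threonine-rich stretches carry dense chains of O-linked sugars. Gel-forming mucins such as MUC5AC and MUC5B are secreted, link to each other through disulfide bonds and make the mucus that covers the gallbladder, the large bile ducts and their glands. Membrane mucins such as MUC1, MUC13 and MUC20 stay anchored on the apical surface of epithelial cells, where they form a barrier and take part in signalling. The comparison of pBTSCs with liver sorts asks how strongly cells of the biliary tree and cells of the liver used each of these genes.

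The values are normalized counts, read counts that the authors divided by a factor for each library. They set libraries side by side for 1 gene but not 1 gene against another, since they are not per length. The depth estimated from the lowest values was 21200000 to 77800000 reads in 17 libraries, and 1570000 in S15, 801000 in S13 and 455000 in S22. A floor of 3 reads is worth 37.7 normalized counts in S15, 77.1 in S13 and 157 in S22, against at most 4.27 in the other libraries, and covers counting error only. Values of 0 in S13 and S22 are therefore below those floors, and the main results that rest on these 3 libraries are given with and without them.

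The liver labels were checked against their antigens. PTPRC, the gene of CD45, ranged from 424 to 2687 normalized counts in the CD45+ libraries and from 450.1 to 3027 in the CD45-/EpCAM+ libraries. EPCAM ranged from 1205 to 1779 in the CD45-/EpCAM+ libraries, from 1175 to 2232 in the CD45+ libraries and from 491 to 1089.6 in the CD45-/EpCAM- libraries. The CD45+ and CD45-/EpCAM+ sorts thus overlapped in the antigens that name them. PECAM1, the gene of CD31, was 20102 to 25291 in the CD31+ libraries, 12940 to 26681 in the CD45+ libraries and 28048 to 36576 in pBTSCs. MCAM, the gene of CD146, was 4614.7 to 5226.5 in the CD146+ libraries, 3672 to 4751 in the CD31+ libraries and 4331 to 7656 in pBTSCs. For PECAM1 and for MCAM the liver ranges given here overlapped. EPCAM in the CD45-/EpCAM- libraries lay below its ranges in the CD45-/EpCAM+ and CD45+ libraries. In pBTSCs PECAM1 lay above its CD31+ and CD45+ ranges but overlapped with the CD146+ libraries, at 20655 to 28778. MCAM in pBTSCs spanned its range in CD146+ cells. The summed level of 7 hepatocyte markers was 930734 to 2600799 in the liver libraries of every label and 26178 to 70194 in the pBTSC libraries.

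MUC5AC, MUC5B and MUC1 were higher in pBTSCs than in each of the 5 liver sorts, and MUC13 was called higher than in CD45-/EpCAM- and CD146+ cells and MUC20 than in CD45-/EpCAM- cells only. In every pBTSC library MUC5AC, MUC5B and MUC1 lay above every liver library, which 11.9% of all 15576 genes tested also did. For MUC13, 1 pBTSC library lay below the highest liver library, and MUC20 overlapped broadly. The plot of the 5 genes by group shows these 2 patterns.

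**Figure D1:**
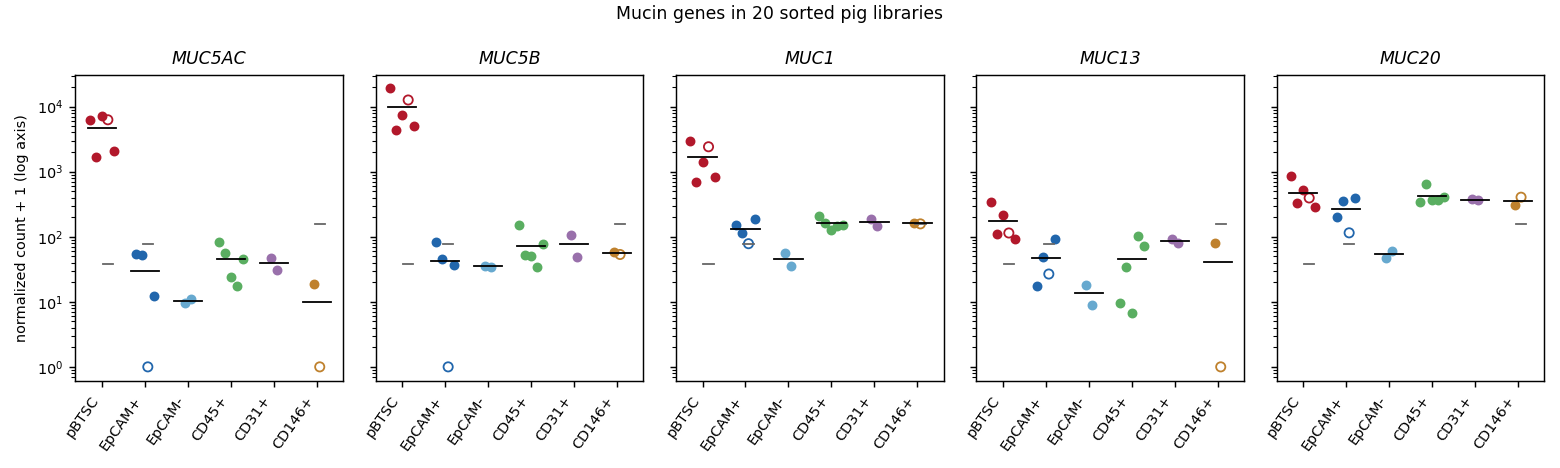
Normalized count plus 1, on a log axis, of 5 mucin genes in 20 libraries by group; each point is 1 library, open points are the 3 libraries under 2000000 reads, grey ticks are the value of 3 reads in those libraries and black lines are group means. The 5 pBTSC libraries lie above all 15 liver libraries for MUC5AC, MUC5B and MUC1, whereas MUC13 and MUC20 overlap with liver libraries.

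MUC5AC encodes a secreted gel-forming mucin known from the surface mucous cells of the stomach and from airway goblet cells. In pBTSCs it stood at 6209 normalized counts in S2, 1699 in S7, 7157 in S11, 6266 in S15 and 2099 in S20. In CD45-/EpCAM+ liver cells it stood at 53.8 in S4, 50.7 in S9, 0 in S13 and 11.3 in S19. In CD45-/EpCAM- cells it was 8.60 in S5 and 10.03 in S14. Each pBTSC library was thus above each of these liver libraries, and S7 and S20 were the low pBTSC libraries. The 5 CD45+ libraries held 81.2 (S3), 55.3 (S8), 23.1 (S12), 16.5 (S18) and 43.7 (S23) normalized counts, the CD31+ libraries 46.2 (S16) and 29.8 (S21), and the CD146+ libraries 18.02 (S17) and 0 (S22). The highest liver library was S3, far below the lowest pBTSC library.

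Groups were compared by limma on the log2 scale, 1 being added to each value. The fit took in all 6 groups and the 15576 genes that reached 10 normalized counts in 2 or more libraries, and p-values were adjusted by Benjamini-Hochberg. Called here means an adjusted p below 0.05 together with a log2 fold change beyond 1 in either direction. Against CD45-/EpCAM+ liver cells, MUC5AC rose by 8.19 on the log2 scale (SE 1.02, adjusted p = 8.26e-06), from a mean of 29.0 ± 27.3 (SD, n = 4) to 4686 ± 2576 (SD, n = 5) normalized counts. Without the libraries under 2000000 reads the difference was 6.76 (SE 0.66). Against CD45-/EpCAM- cells it was 8.59 (SE 1.27), against CD45+ cells 6.68 (SE 0.96), against CD31+ cells 6.71 (SE 1.27) and against CD146+ cells 9.83 (SE 1.27), all 4 called, with adjusted p from 2.66e-05 to 0.00103. The CD146+ value rests in part on S22, listed at 0, and was 7.54 (SE 0.96) without the shallow libraries.

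MUC5B encodes the gel-forming mucin that is well known from gallbladder epithelium and airway glands. In pBTSCs it stood at 18979 normalized counts in S2, 4355 in S7, 7445 in S11, 12615 in S15 and 4974 in S20. In CD45-/EpCAM+ liver cells it stood at 83.0 in S4, 45.2 in S9, 0 in S13 and 35.4 in S19, and in CD45-/EpCAM- cells at 34.5 in S5 and 33.5 in S14. The CD45+ libraries held 150.5 (S3), 52.2 (S8), 49.1 (S12), 33.7 (S18) and 75.9 (S23), the CD31+ libraries 105.7 (S16) and 48.0 (S21), and the CD146+ libraries 57.5 (S17) and 52.3 (S22). As for MUC5AC, the groups did not overlap, S3 was the highest liver library, and S7 and S20 were the lowest pBTSC libraries.

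By limma, MUC5B was 8.74 higher on the log2 scale in pBTSCs than in CD45-/EpCAM+ cells (SE 0.92, adjusted p = 1.31e-06), and 7.16 higher (SE 0.55) without the shallow libraries. The differences from the CD45-/EpCAM-, CD45+, CD31+ and CD146+ sorts were 7.88, 7.01, 6.84 and 7.21, with adjusted p of at most 0.000343. In both gel-forming mucins, the value of 0 in S13 thus raised the difference from CD45-/EpCAM+ cells, which was called with and without it.

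MUC1 encodes a membrane mucin of most simple epithelia, whose cytoplasmic tail takes part in signalling. In pBTSCs it stood at 2970.3 normalized counts in S2, 697 in S7, 1429 in S11, 2411 in S15 and 834 in S20. In CD45-/EpCAM+ liver cells it stood at 149.7 in S4, 113 in S9, 77.1 in S13 and 187 in S19, the S13 value being the floor of 3 reads. In CD45-/EpCAM- cells it was 55.8 in S5 and 34.0 in S14, the 2 lowest values of the gene. The CD45+ libraries held 211 (S3), 161.5 (S8), 125 (S12), 147.5 (S18) and 150.5 (S23), the CD31+ libraries 188 (S16) and 143 (S21), and the CD146+ libraries 162 (S17) and 157 (S22, again 3 reads). MUC1 stood above the floor in all 13 deep liver libraries, as MUC5AC and MUC5B did.

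MUC1 rose by 3.50 on the log2 scale against CD45-/EpCAM+ cells (SE 0.38, 95% interval 2.71 to 4.30, adjusted p = 1.69e-06 by limma), from 132 ± 47.2 (SD, n = 4) to 1668 ± 993 (SD, n = 5) normalized counts. The differences from CD45-/EpCAM-, CD45+, CD31+ and CD146+ cells were 5.003, 3.18, 3.11 and 3.16, with adjusted p of at most 0.000126. The rise of MUC1 was called against each liver sort, and without the shallow libraries it was 2.92 to 4.81.

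MUC13 encodes a membrane mucin known from the intestinal and other glandular epithelia. In pBTSCs it stood at 337 normalized counts in S2, 109.8 in S7, 217 in S11, 113 in S15, which is about 9 reads, and 90.6 in S20. In CD45-/EpCAM+ liver cells it stood at 16.2 in S4, 48.0 in S9, 25.7 in S13, which is below that library's floor, and 92.7 in S19. In CD45-/EpCAM- cells it was 17.1 in S5 and 7.80 in S14. The lowest pBTSC library, S20, lay just below S19, the only overlap between these groups. The CD45+ libraries spread from 5.77 (S12) and 8.42 (S3) over 33.5 (S8) to 71.2 (S23) and 100.9 (S18), the CD31+ libraries held 90.8 (S16) and 77.7 (S21), and the CD146+ libraries 78.7 (S17) and 0 (S22). 3 liver libraries, S16, S18 and S19, stood at or above the lowest pBTSC library.

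By limma, MUC13 was called higher in pBTSCs than in CD45-/EpCAM- cells (log2 fold change 3.61, SE 1.28, adjusted p = 0.0272). The difference from CD45-/EpCAM+ cells was 2.01 (95% interval -0.16 to 4.18, adjusted p = 0.133), that from CD45+ cells was 2.47 (0.43 to 4.52, adjusted p = 0.0582) and that from CD31+ cells was 0.85 (-1.85 to 3.55, adjusted p = 0.743). None of these 3 passed. The CD45+ difference was called under 10 of 31 alternatives, among them without the shallow libraries (2.58, adjusted p = 0.0174) and with the run of storage numbers as a block (2.47, adjusted p = 0.0420), and the CD45-/EpCAM+ difference under 5 of 31, among them the fit of the 2 groups only (adjusted p = 0.0175) and that which weights each library by its own spread (array weights, adjusted p = 0.0185). The call against CD146+ cells (4.10, adjusted p = 0.0242) rests on S22 at 0, below a floor of 157, and was 0.94 (adjusted p = 0.799) when S22 alone was left out. The call against CD45-/EpCAM- cells was lost when S2, S5 or S14 was left out, with adjusted p of 0.0523, 0.0893 and 0.156. It was also lost with the run of storage numbers as a block (3.04, adjusted p = 0.0639), with the storage range as a term (adjusted p = 0.0550) and with an added value of 0.1 in place of 1 (adjusted p = 0.0817).

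MUC20 encodes a membrane mucin that binds the growth factor receptor MET. In pBTSCs it stood at 845 normalized counts in S2, 329 in S7, 518 in S11, 393 in S15 and 288 in S20. In CD45-/EpCAM+ liver cells it stood at 199 in S4, 358 in S9, 114 in S13, which is about 4.4 reads, and 387 in S19. In CD45-/EpCAM- cells it was 45.8 in S5 and 60.01 in S14. The CD45+ libraries held 341 (S3), 652 (S8), 369 (S12), 359 (S18) and 405 (S23), the CD31+ libraries 372 (S16) and 359.8 (S21), and the CD146+ libraries 309.7 (S17) and 404 (S22, about 7.7 reads). Only S2 exceeded every liver library, and 11 of the 15 liver libraries stood at or above the lowest pBTSC library.

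MUC20 was called higher in pBTSCs than in CD45-/EpCAM- cells by limma (log2 fold change 3.04, SE 0.44, adjusted p = 3.31e-05), where the libraries did not overlap. Against the other 4 sorts it was not called, with differences of 0.89 (95% interval 0.15 to 1.63, adjusted p = 0.0544) from CD45-/EpCAM+, 0.09 (-0.61 to 0.79) from CD45+, 0.26 (-0.66 to 1.19) from CD31+ and 0.31 (-0.61 to 1.24) from CD146+ cells. The first was 0.58 (adjusted p = 0.210) without the shallow libraries, and it was called when each library was rescaled to the same total (1.20, adjusted p = 0.0130) and when S20, S9 or S19 was left out (1.04 to 1.13). The interval against CD45+ cells lies within a log2 fold change of 1 in either direction.

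Against CD45-/EpCAM+ cells 3 of the 5 mucins were called higher in pBTSCs, where 14.8% of all genes tested were. Against CD45-/EpCAM- cells all 5 were, beside 20% of all genes. Against CD45+ cells 3 were called, beside 11%, and against CD31+ cells 3, beside 6.73%. Against CD146+ cells 4 were called, beside 14.5%, and 3 of them without the shallow libraries. None was lower in any of the 5 comparisons. The median log2 fold change of the 5 genes was 3.50, 5.003, 3.18, 3.11 and 4.10 in these comparisons, beside 0.08, 0.04, 0.07, 0.09 and 0.18 over all genes tested. The 5 comparisons share the pBTSC libraries and are not independent of each other. In RNA from a bulk cell suspension, fewer cells of a type and less RNA per cell cannot be told apart.

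**Figure D2:**
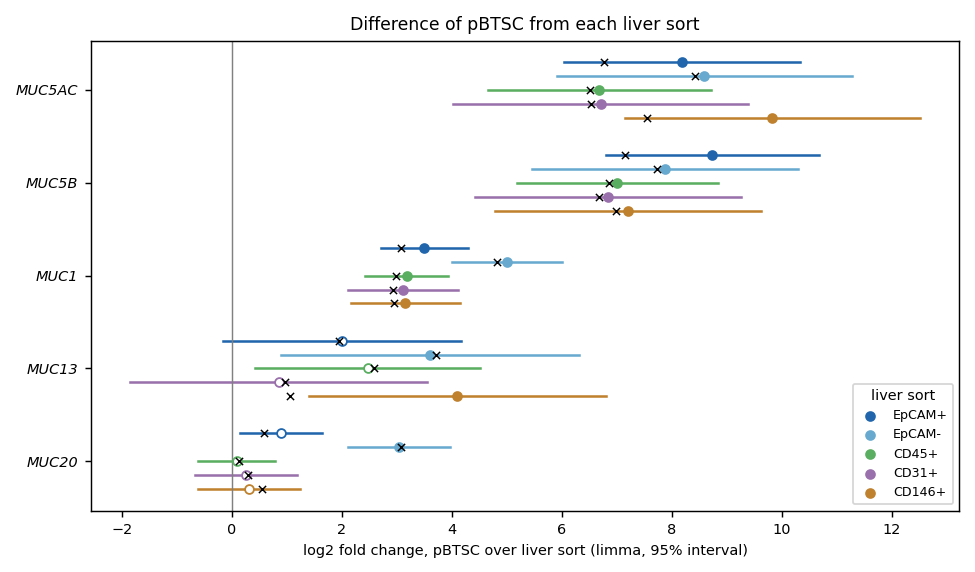
Log2 fold change of pBTSCs over each liver sort (limma on log2 of the normalized count plus 1, colours for the sorts); bars are 95% intervals, filled points were called and open points were not, and crosses are the values without the 3 libraries under 2000000 reads. MUC5AC and MUC5B lie between 6.68 and 9.83, MUC1 between 3.11 and 5.003, and the crosses for MUC13 against CD146+ cells and for MUC5AC against CD146+ cells lie far from their points.

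Among the liver sorts, CD45-/EpCAM+ cells were compared with CD45-/EpCAM- and with CD45+ cells. MUC20 was higher in CD45-/EpCAM+ than in CD45-/EpCAM- cells by 2.15 on the log2 scale (SE 0.45, adjusted p = 0.0249 by limma), 1 of the 5 mucins called where 2.8% of all genes were called in either direction. Its lowest CD45-/EpCAM+ library, S13, at 114 or about 4.4 reads, lay above the higher CD45-/EpCAM- library, at 60.01. The call was lost when S19 or S5 was left out, with adjusted p of 0.0724 and 0.486. MUC1 did not overlap between these sorts either, its lowest CD45-/EpCAM+ library again being S13, at 3 reads. The share of all genes without overlap between these sorts was not counted. MUC1 was not called (1.499, SE 0.49, adjusted p = 0.0857), and it was called without the shallow libraries (1.73, adjusted p = 0.0467). The erythroid marker sum was 187863 to 866532 in the CD45-/EpCAM- libraries and 2394 to 42450 in the CD45-/EpCAM+ libraries, and its part in these differences was not tested.

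Between CD45-/EpCAM+ and CD45+ liver cells none of the 5 mucins was called by limma, and 0 of all genes tested, or 0%, were, with 214 genes at an unadjusted p under 0.05. MUC20 had the smallest unadjusted p of the 5, 0.0363 (log2 fold change -0.80, 95% interval -1.54 to -0.06). The intervals for MUC5AC (-3.66 to 0.65), MUC5B (-3.67 to 0.22), MUC1 (-1.12 to 0.47) and MUC13 (-1.70 to 2.63) all include 0. By mean level, the order of the liver sorts for MUC1 was CD31+ (166), CD146+ (159.4), CD45+ (159.0), CD45-/EpCAM+ (132) and CD45-/EpCAM- (44.9), and the libraries of the first 4 sorts overlapped with each other. For MUC20 the order was CD45+ (425), CD31+ (366), CD146+ (357), CD45-/EpCAM+ (264) and CD45-/EpCAM- (52.9), again with overlap among the first 4. By mean, CD45-/EpCAM- was the lowest sort for MUC1, MUC13, MUC20 and MUC5B, at 44.9, 12.4, 52.9 and 34.0 normalized counts. Its libraries overlapped with other sorts for MUC5B (33.5 and 34.5, against 33.7 in S18) and for MUC13 (7.80 and 17.1, against 16.2 in S4).

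The 5 mucins varied widely among the pBTSC libraries. The highest library was 4.21 times the lowest for MUC5AC (S11 and S7), 4.36 times for MUC5B (S2 and S7), 4.26 times for MUC1 (S2 and S7), 3.72 times for MUC13 (S2 and S20) and 2.93 times for MUC20 (S2 and S20). Over all genes tested the median of that ratio was 1.59. For all 5 mucins S7 and S20 were the 2 lowest pBTSC libraries, an order noticed in the values, which 1106 of the 15576 genes tested, or 7.10%, shared. This order does not follow the piglet line, since S7 is of the H2B-GFP line and S20 is wild type. For MUC13 it rests on 109.8 in S7 against 113 in S15, the latter about 9 reads. For MUC20 it rests on 329 in S7 against 393 in S15, the latter about 31 reads. The study lists RNA integrity numbers, a measure of how intact the RNA is, that were uneven among these libraries. The lowest listed is that of S7 and the highest that of S20. The part of RNA integrity in the spread was not tested.

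**Figure D3:**
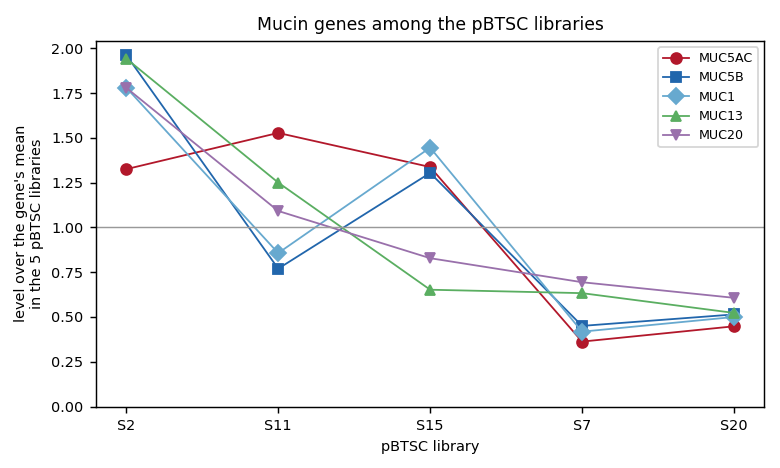
Level of each mucin gene in the 5 pBTSC libraries divided by the gene's mean over them (lines join the points of 1 gene and have no order in time). S7 and S20 are the 2 lowest libraries for each of the 5 genes, S2 is the highest for 4 of them, and MUC5AC is highest in S11. For MUC13, S15 lies just above S7 and holds about 9 reads.

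The 2 gel-forming mucins kept different proportions in these libraries. MUC5AC divided by MUC5B was 0.327 in S2, 0.390 in S7, 0.497 in S15 and 0.422 in S20, but 0.961 in S11. S11 thus held relatively more MUC5AC than the other 4 pBTSC libraries. In the liver libraries with a value for both genes above the floor this ratio ran from 0.249 in S5 to 1.12 in S9.

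The marker sums of other cell types moved with the mucins among the pBTSC libraries to different degrees. The erythroid sum of 4 genes was 29555 in S2, 29290 in S15 and 78392 in S11, against 95502 in S7 and 128534 in S20. The endothelial sum of 4 genes was 51838 in S2, 55599 in S15 and 50496 in S11, against 59634 in S7 and 61208 in S20. The libraries low in mucins were thus the ones high in both erythroid and endothelial markers. The summed level of 5 biliary epithelial markers was 12432 to 16699 over the 5 libraries. It did not follow that order, with S7 at 14432 and S20 at 15328. AQP1, at 8867 to 12926, made up most of that sum. Within it KRT7 ran from 440 to 2081, EPCAM from 884 to 2075, SOX9 from 402 to 821 and CFTR from 523 to 887. The sum therefore does not show whether these genes followed the mucins. The mesenchymal and smooth muscle sum ran from 263987 in S2 to 912849 in S15, and the leukocyte sum from 2431 in S7 to 6263 in S20. The part of other cell types in the spread of the mucins was not tested.

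Biliary and gastrointestinal markers were read beside the difference between pBTSCs and liver. Of all genes tested 14.8% were called higher and 10.3% lower in pBTSCs than in CD45-/EpCAM+ cells. The biliary epithelial sum of 5 genes with a row, of 6 listed, was 3360 to 13618 normalized counts in liver libraries, and 1 of the 5 was called higher and 1 lower in pBTSCs than in CD45-/EpCAM+ cells. AQP1, a water channel that endothelium and red cells also carry, made up most of the biliary sum in pBTSCs, with a mean of 10753, while KRT7, a keratin of bile duct cells, ran from 440.2 to 2081 there. The sum of 6 genes of gastric and intestinal surface epithelium, of 7 listed, was 327 to 803 in pBTSCs and 154 to 1519 in liver libraries, and VIL1, at a mean of 387 in pBTSCs and 685 in CD45-/EpCAM+ cells, made up much of it. LGALS4 of that list, a galectin of the gut epithelium, stood at 14.98 to 339 in pBTSCs and at most 5.33 in any liver library, with no overlap, and was the 1 of 4 tested that was called higher than in CD45-/EpCAM+ cells. Mesenchymal and smooth muscle genes were higher in pBTSCs (4 of 5 against CD45-/EpCAM+ cells), with sums of 263987 to 912849 against 27577 to 112182 in liver. The leukocyte sum of 5 genes was 2431 to 6263 in pBTSCs and 8318 to 20498 in liver libraries, and endothelial sums of 4 genes overlapped, at 50496 to 61208 and 16646 to 114491. The part of these cell types in the mucin differences was not tested.

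The liver level of MUC13 differed between ranges of the storage number. In the 7 deep liver libraries numbered S3 to S14 it ran from 5.77 to 48.0 normalized counts with a median of 16.2, and in the 6 deep liver libraries numbered S16 to S23 from 71.2 to 100.9 with a median of 84.8. These ranges did not overlap, and the share of all genes of which this holds was not counted. Both CD45-/EpCAM- libraries lie in the first range, and all CD31+ and CD146+ libraries in the second. Sort and storage number thus cannot be fully told apart in these pooled ranges. Among CD45+ libraries alone MUC13 was 8.42 (S3), 33.5 (S8) and 5.77 (S12), against 100.9 (S18) and 71.2 (S23). In pBTSCs MUC13 ran from 109.8 to 337 in S2, S7 and S11 and was 113 in S15 and 90.6 in S20, which overlap. Against CD45+ cells of the same range of numbers MUC13 was 3.95 higher on the log2 scale in pBTSCs up to S14, with no overlap. From S15 on it was 0.25 higher, or 0.095 without S15, and the libraries overlapped.

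That change was tested as an interaction in limma over the 5 pBTSC and 5 CD45+ libraries and 15334 genes. It was -3.70 for MUC13 (SE 0.96, unadjusted p = 0.00382) and did not pass the adjustment over all genes (adjusted p = 0.129). No mucin was called, beside 0.9% of all genes in either direction. The interaction terms of MUC5AC, MUC5B, MUC1 and MUC20 were 0.56 (SE 1.09), 0.41 (SE 1.01), 0.10 (SE 0.83) and -0.45 (SE 0.56). Within both ranges MUC5AC, MUC5B and MUC1 were above every CD45+ library, by 6.46 and 7.02, 6.85 and 7.26, and 3.14 and 3.24 on the log2 scale. Among pBTSCs the storage range coincides with the piglet line, H2B-GFP up to S14 and wild type from S15 on, so the 2 cannot be told apart.

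**Figure D4:**
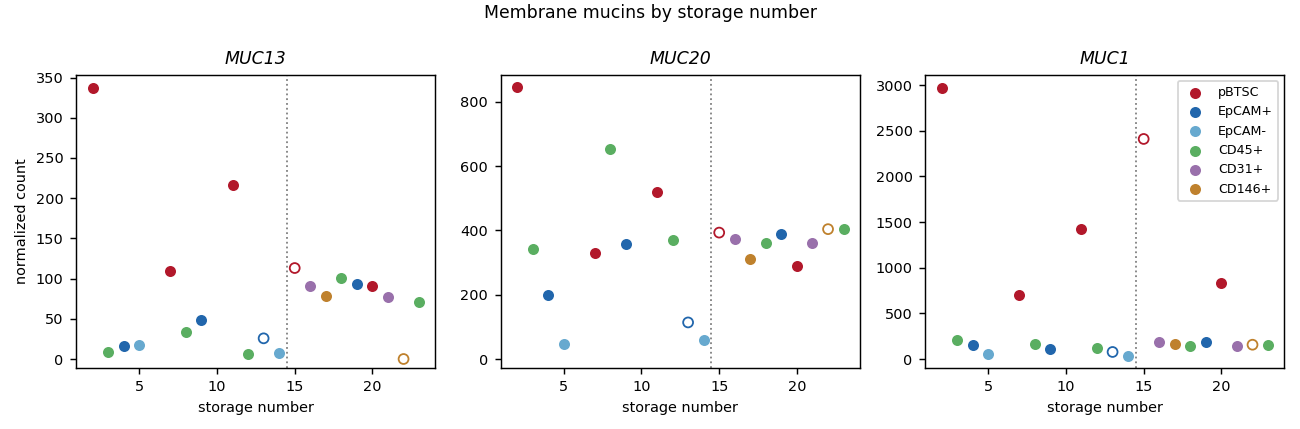
Normalized counts of the membrane mucins MUC13, MUC20 and MUC1 against the storage number of each library, coloured by group; open points are the 3 libraries under 2000000 reads and the dotted line separates S14 from S15. The deep liver libraries hold 5.77 to 48.0 normalized counts of MUC13 left of the line and 71.2 to 100.9 right of it, with no such gap for MUC20 and MUC1. CD45-/EpCAM- libraries lie only left of the line, and CD31+ and CD146+ libraries only right of it.

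Genes that build, fold and pack mucins were described from lists, for pBTSCs against CD45-/EpCAM+ liver cells. In that comparison 14.8% of all genes tested were called higher and 10.3% lower, the shares to set beside the counts of each list. The largest differences lay in the proteins of folding and packaging and those secreted with mucins, of which 4 of 7 tested were called higher and none lower by limma, with a median log2 fold change of 2.80 beside 0.08 over all genes. AGR2, the disulfide isomerase that gel-forming mucins need for folding, stood at 11395 normalized counts in S2, 3779 in S7, 4883 in S11, 7259 in S15 and 3179 in S20. In CD45-/EpCAM+ cells it stood at 46.0, 69.2, 27.9 and 65.4 in S4, S9, S13 and S19. AGR2 was 6.77 higher on the log2 scale (SE 0.45, adjusted p = 1.15e-08), with no overlap, and its 2 low pBTSC libraries were again S7 and S20. ERN2, a stress sensor of the endoplasmic reticulum in mucous cells, stood at 254 to 738 in pBTSCs and 0 to 30.9 in CD45-/EpCAM+ cells, and was 5.47 higher (SE 0.89, adjusted p = 0.000123). Its value of 0 in S13 is below that library's floor, and the difference was 4.36 (SE 0.58) without the shallow libraries.

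TFF3, a trefoil peptide secreted with mucins, stood at 221 normalized counts in S2, 52.2 in S7, 137 in S11, 37.7 in S15, which is 3 reads, and 28.8 in S20. In CD45-/EpCAM+ cells it was at 0 to 2.4, below the floor in 3 of the 4 libraries, so that its fitted difference of 5.18 (SE 0.68) depends on the value added before the logarithm and ran from 2.90 to 6.498 under other values. PIGR, the receptor that carries IgA across mucosal epithelia, was 2.80 higher (SE 0.48, adjusted p = 0.000186). TFF1 (0.18), CLCA1 (2.45) and VAMP8 (-0.31) were not called.

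Of the GALNT family, the enzymes that attach the first sugar of mucin-type O-glycans, 5 of 13 tested were called higher and none lower, with a median of 1.61. GALNT3 stood at 196 to 512 normalized counts in pBTSCs and at 56.5 to 97.5 in CD45-/EpCAM+ cells and was 2.23 higher on the log2 scale (SE 0.28, adjusted p = 8.74e-06). GALNT12 was 2.40 higher and GALNT16 2.15 higher, with no overlap for either. GALNT13 was 3.14 higher, but at 0 to 1.7 normalized counts in the CD45-/EpCAM+ libraries it lay at or near the floor, and its difference was 1.22 to 4.52 under other added values. The broadly used GALNT1 and GALNT2 differed by 0.21 and 0.42 and were not called.

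Of the enzymes that extend and cap these glycans, 3 of 11 tested were higher and 1 was lower, with a median of 0.77. FUT2, the secretor fucosyltransferase, stood at 668 normalized counts in S2, 44.2 in S7, 132 in S11, 578 in S15 and 426 in S20, and at 12.3, 47.4, 0 and 96.0 in S4, S9, S13 and S19. S7 lay within the range of the liver libraries, and the call (3.99, SE 1.10, adjusted p = 0.00842 by limma) was lost without the shallow libraries (2.36, adjusted p = 0.0668). CHST4, a sulfotransferase of mucin-type glycans, was 3.55 higher (SE 0.75), or 2.93 (SE 0.79) without the shallow libraries, at 3.8 to 52.0 against 0 to 5.8 normalized counts, and GCNT1, which makes the core 2 branch, was 1.47 higher (SE 0.41). ST3GAL1, which caps core 1 glycans with sialic acid, was lower by -1.41 on the log2 scale (SE 0.20, adjusted p = 2.82e-05), where 10.3% of all genes tested were called lower in pBTSCs.

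Of 12 transcription factors of mucous and endodermal epithelia tested, 2 were higher and 5 lower, beside 14.8% and 10.3% of all genes tested, with a median of 0.02. SPDEF, a regulator of goblet and mucous cells, stood at 178, 82.6, 120.1, 126 and 69.0 normalized counts in S2, S7, S11, S15 and S20, and at 27.5, 14.7, 0 and 31.5 in S4, S9, S13 and S19. It was 3.33 higher (SE 0.91, adjusted p = 0.00800) and 2.12 higher without the shallow libraries, and S7 and S20 were its lowest pBTSC libraries. CREB3L1, a factor of the secretory pathway, was 1.91 higher (SE 0.27). The 5 lower genes were FOXA3 (-4.73), FOXA1 (-2.15), FOXA2 (-1.77), BHLHA15 (-1.68) and GATA4 (-1.61), of which the FOXA factors and GATA4 are also known as factors of liver cells. FOXA3 was listed at 0 in S15, below a floor of 37.7, and was -3.83 without the shallow libraries. ELF3 (0.29) and EHF (0.36), factors of simple epithelia, were not called.

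**Figure D5:**
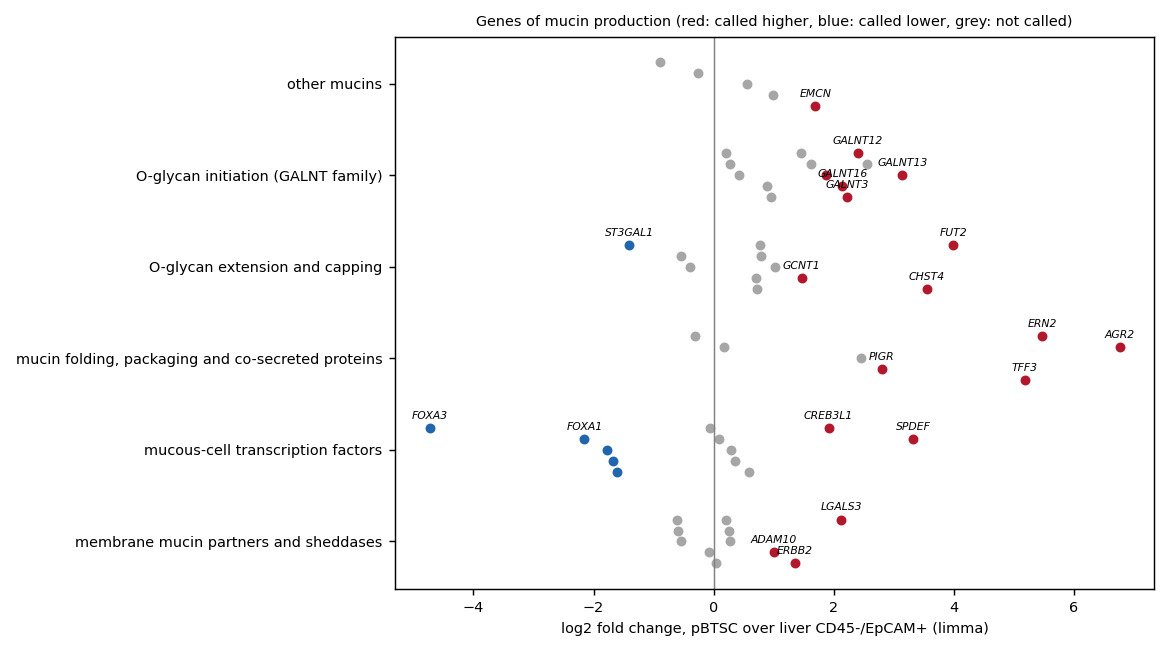
Log2 fold change of pBTSCs over CD45-/EpCAM+ liver cells (limma) for the tested genes of 6 lists of mucin production; each point is 1 gene, named where it is described, and rows of points within a list are spread for legibility only. AGR2, ERN2 and TFF3 lie farthest to the right at 6.77, 5.47 and 5.18, and FOXA3 farthest to the left at -4.73.

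Of 11 partners and proteases of membrane mucins, 3 were higher and none lower, with a median of 0.20. LGALS3, the galectin that binds glycans of MUC1, was 2.12 higher (SE 0.75, adjusted p = 0.0331), a call lost when any 1 of 6 libraries was left out although its libraries did not overlap, at 245 to 442 against 50.05 to 99.9 normalized counts. ERBB2, a receptor that associates with membrane mucins, was 1.35 higher (SE 0.30), and 0.999 without the shallow libraries. ADAM10, a protease that sheds membrane proteins, was 1.01 higher (SE 0.18), at the threshold. MET, to which MUC20 binds, differed by -0.54 (adjusted p = 0.128) and was not called.

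Other mucins were less informative. Of 18 further mucin and mucin-like names 7 have a row and 5 were tested, of which EMCN, a sialomucin of endothelium, was called higher (1.70, SE 0.26) and none lower. MUC6, a gel-forming mucin of deep gastric glands and the biliary tree, was at 0 to 5.77 normalized counts in pBTSCs and at most 9.51 in CD45-/EpCAM+ cells, and its difference was -0.26 (SE 0.73). MUC7 and MUC15 did not pass the filter on low values.

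S7 and S20 were the 2 lowest pBTSC libraries for 3 of 7 genes of folding and packaging, 4 of 13 of the GALNT family and 3 of 11 of glycan extension. The same held for 4 of 12 transcription factors, 1 of 11 partners and 0 of 5 other mucins. Over all genes tested that share was 7.10%, and the order was noticed in these same values.

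In RefSeq's gene order for Sscrofa11.1, MUC5AC and MUC5B are neighbours with no gene between them, and MUC6 lies on the far side of MUC5AC with 1 gene between. The 2 adjacent genes differed by 8.19 and 8.74 between pBTSCs and CD45-/EpCAM+ cells, whereas MUC6 (-0.26) and TOLLIP (-0.89), next to MUC5B, were not called. Of the 24 genes other than the 5 mucins that are the 3 nearest with a row on either side of each, 23 were tested. Of these 3 were higher and 1 was lower, beside 14.8% and 10.3% of all genes tested. The higher genes were BRSK2 (2.84), beyond TOLLIP, THBS3 (2.57), near MUC1, and SLC12A8 (1.11), near MUC13, and the lower gene was TFRC (-1.15), near MUC20. The remaining 19 were not called, HEG1 and ITGB5 on either side of MUC13 among them (0.98 and 0.45).

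The genes whose levels ran most like each mucin over the 20 libraries were named by Pearson's r on the log2 scale. This likeness is a description over libraries of 6 groups and carries the difference between pBTSCs and liver. MUC5AC was most like LRFN5 (0.987), CHD5 (0.969) and TMC5 (0.966), and MUC5B most like TCN1 (0.966), NKX2-3 (0.961) and GNAO1 (0.953). MUC1 was most like SPP1, SORT1 and AHCYL2, at 0.968 each. MUC13 reached 0.914 with LRRC4C and MUC20 0.941 with RASAL1, followed by CCL28 (0.915). Among the members, MUC5AC and MUC5B were most alike (0.947), followed by MUC5B with MUC1 (0.918) and MUC5AC with MUC1 (0.890), and MUC13 and MUC20 least (0.389).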

How the data were processed

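Poly(A) RNA libraries (TruSeq Stranded mRNA) of 20 pig cell preparations were grouped by their deposited cell type labels. The values deposited by the authors are normalized counts (a signal with no value below 0), 1 column per library. The submitters' processing notes name STAR, Salmon and DESeq2 without roles, and the genome build is not given in the sources used here. Low values lay within 0.05 reads of a whole read for 65.7% to 87.3% of values per library, so reads were not recovered and no count test was run. Depth was estimated as the library total divided by the value of 1 read.

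After adding 1 and taking log2, values were fitted with limma 3.58.1 under R 4.3.3 (eBayes with trend, Benjamini-Hochberg), a step first tested on simulated data. Tables and figures were made with Python 3.11.15, pandas 2.3.3, numpy 2.4.6, scipy 1.17.1 and matplotlib 3.10.9. The genes and lists were chosen with earlier results of these data known. Named genes are all mucins with a row, up to 4 called genes with the largest change per list, the 3 genes most like each mucin and marker genes beside a result. Of the genes most like a mucin, 1 is not reported here. Other genes of a list, the sort antigens and neighbouring genes were named after their values were seen. Alternatives were other added values (0.1 and 10), filters, scaling, weights, variance priors, storage range or run as a term, 2 groups only, no shallow libraries and each library left out.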

Additional observations from a re-analysis of the deposited data

Results flagged for a closer look

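MUC20 in the CD45+ liver library S8 stood at 651.8 normalized counts, apart from the other 4 CD45+ libraries, at 341 to 405. Its gap to the nearest of them is 0.794 of the group's whole range. With 15 groups of 4 or 5 libraries looked at, about 1 in 20 of them stands apart by chance in this way. S8 is a deep library.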

How the results depend on the processing

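MUC5AC, MUC5B and MUC1 were called higher in pBTSCs than in each liver sort under all 31 alternatives. The number of mucins called kept within 1.5 times its value in 224 comparisons of settings and moved in 7, all of CD45-/EpCAM+ against CD45-/EpCAM- cells. There 1 mucin was called, 2 with the same total per library, without the shallow libraries or with the run of storage numbers as a block, 0 with the 2 groups only or with array weights, and 0 to 1 with 1 library left out. In that comparison MUC5AC (0.41) was -0.33 with an added value of 0.1 and -0.26 to 1.67 with 1 library left out, and MUC5B (-0.85) was 0.57 without the shallow libraries, 0.22 with array weights and -1.56 to 0.57 with 1 library left out. The interaction terms without the shallow libraries were -0.23 for MUC5AC, -0.26 for MUC5B and -0.66 for MUC1, and with 1 library left out -0.23 to 1.35, -0.26 to 1.08 and -0.66 to 0.87. With 1 library left out, MUC13 in CD45-/EpCAM+ against CD45+ cells was -0.044 to 0.93 and MUC20 in pBTSCs against CD45+ cells -0.14 to 0.26. None of these reversals involved a called value, and the cause was not tested. All genes called moved most for CD45-/EpCAM+ against CD45-/EpCAM- cells (436, from 0 to 1478), for the interaction (138, from 22 to 369), for CD31+ (2236, from 1018 to 3804), for CD146+ (3462, down to 1152) and for CD45-/EpCAM- (5698, down to 3390). The labels carry no replicate numbers shared between groups, so no samples are paired by label, and the block used runs of storage numbers inferred from the titles. Depth limits MUC5AC, MUC5B, MUC13 and MUC1 in S13 and S22, with 3 reads of MUC1 in each, and MUC20 there, at about 4.4 and 7.7 reads. It also limits MUC13 in S15, at about 9 reads.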
